A study of Mus musculus with 12 samples.

Results

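A list of 40 genes of glucose breakdown and of the response to low oxygen was followed through differentiation of mouse ES cells, and 36 of them could be measured among the 13067 genes tested. The list was given by gene symbol, and where several probe sets belonged to a gene, the brightest on average over the 12 arrays stood for it. It falls into 21 glucose transporters, glycolytic enzymes and lactate dehydrogenases, of which 18 were measured, and 19 genes of the hypoxia-inducible factor HIF, its targets and metabolic control, of which 18 were measured. All 36 passed the filter on low values, which kept the brighter 60% of probe sets. For Gpi1 and Eno1 no probe set carried the symbol, Bnip3l shared its 3 probe sets with a pseudogene, and Gapdh was listed only on control probe sets and on probe sets shared with other genes.

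RNA came from the D3 line, an established mouse embryonic stem cell line, kept on a feeder layer of MMC-treated mouse embryonic fibroblasts and taken through embryoid body formation, in which aggregated stem cells give rise to derivatives of the germ layers. Affymetrix arrays were hybridised for 4 groups of 3: control day0 (undifferentiated, no agent), control day8 (differentiated to day 8, no agent), BPA day8 and NP day8 (differentiated to day 8 with the agent labelled BPA or NP). All 4 groups come from this line kept on feeders, which does not mean that feeder cells were equally present in the samples. The labels give neither doses nor a spelling of the agents. Nothing in them tells if replicates came from different cultures, so p-values measure the spread between these samples, which may be technical. Values are log2 signals, errors of changes are standard errors of the fit, and a gene passed at an adjusted p under 0.05 over all genes tested (limma, Benjamini-Hochberg).

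Marker genes were read beside the members. The summed signal of 8 pluripotency markers was 28003 to 28713 on control day0 arrays, 3396 to 6932 on control day8, 20001 to 20884 on BPA day8 and 16466 to 21958 on NP day8, and none of the 8 was under background in any group. Thy1 and S100a4, which fibroblasts express, were at means of 8.18 and 10.21 on control day0 arrays. On control day8 they were at 2.97 and 3.09, under the background level of 3.41. With BPA their means were 2.87 and 3.14, and with NP 3.49 and 3.01. Of the whole list of 8 fibroblast and mesenchyme markers, 3 fell and 4 rose over differentiation, the risers being Col3a1 (1.04), Postn (2.51), Lum (2.94) and Pdgfra (3.38). Feeder cells express genes of the list too, and their part in the day 0 values was not tested. The summed signal of 8 visceral and yolk sac endoderm markers was 84 to 112 on control day0 arrays and 6545 to 12778 on control day8. It was 6471 to 9639 with BPA and 11107 to 12350 with NP. Sums of vascular and erythroid markers were also higher on control day8 than on control day0 arrays, and those of neural markers were lower. The part of these cell types in the values of the members was not tested. In such bulk samples, fewer cells of a type and less RNA per cell cannot be told apart.

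Glycolysis splits glucose into pyruvate in the cytosol: glucose enters through SLC2A transporters, is trapped by hexokinase, committed by phosphofructokinase, and ends as pyruvate, which lactate dehydrogenase can reduce to lactate. Most steps have several isoforms with tissue-restricted use, such as the muscle enzymes Pgam2 and Eno3. Pluripotent stem cells are known for high glycolytic activity. HIF pairs an oxygen-regulated alpha subunit (Hif1a or Epas1) with a constant partner; when oxygen is present, prolyl hydroxylases of the Egln family mark the alpha subunit for destruction, and in low oxygen the pair binds DNA at the core letters ACGTG or GCGTG and raises glycolytic and hypoxia genes, Egln genes among them.

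Those core letters were looked up in the RefSeq promoter windows of the members (assembly GRCm38.p6, 250 bases before to 50 after a start site), and 4 windows are shown because they belong to members on which the results turn. P4ha2, P4ha1 and Bnip3 rose together over differentiation, and Pgam2 is the member with the largest response to an agent. Capitals mark ACGTG or GCGTG read on either strand, so that CACGT and CACGC are matches on the opposite strand.
P4ha2, chr11:54100674-54100973, plus strand: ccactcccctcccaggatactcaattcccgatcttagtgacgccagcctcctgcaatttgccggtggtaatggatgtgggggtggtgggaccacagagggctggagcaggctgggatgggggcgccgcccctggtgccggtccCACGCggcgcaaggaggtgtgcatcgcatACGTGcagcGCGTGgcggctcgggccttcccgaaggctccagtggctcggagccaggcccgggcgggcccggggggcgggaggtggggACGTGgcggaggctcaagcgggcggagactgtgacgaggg
P4ha1, chr10:59323046-59323345, plus strand: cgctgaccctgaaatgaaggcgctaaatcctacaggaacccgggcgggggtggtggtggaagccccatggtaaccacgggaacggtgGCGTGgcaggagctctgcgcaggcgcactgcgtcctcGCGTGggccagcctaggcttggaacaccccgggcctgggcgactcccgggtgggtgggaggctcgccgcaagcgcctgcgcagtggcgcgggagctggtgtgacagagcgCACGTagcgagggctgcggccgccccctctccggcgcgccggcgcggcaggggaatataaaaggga
Bnip3, chr7:138909457-138909756, minus strand: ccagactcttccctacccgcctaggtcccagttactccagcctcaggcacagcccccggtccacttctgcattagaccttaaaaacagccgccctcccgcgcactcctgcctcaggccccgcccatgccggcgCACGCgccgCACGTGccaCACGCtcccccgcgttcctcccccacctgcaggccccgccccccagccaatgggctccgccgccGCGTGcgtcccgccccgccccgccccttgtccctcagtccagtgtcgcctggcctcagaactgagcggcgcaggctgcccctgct
Pgam2, chr11:5803747-5804046, minus strand: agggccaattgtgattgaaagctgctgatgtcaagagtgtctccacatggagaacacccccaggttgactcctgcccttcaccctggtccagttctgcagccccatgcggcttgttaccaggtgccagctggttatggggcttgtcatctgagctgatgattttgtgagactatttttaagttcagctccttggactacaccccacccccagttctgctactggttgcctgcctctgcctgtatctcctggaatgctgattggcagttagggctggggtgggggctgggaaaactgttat

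The P4ha2 window held 2 ACGTG and 2 GCGTG cores, the nearest of them starting 10 bases after the start site. In the P4ha1 window there were 1 ACGTG and 2 GCGTG cores, and in that of Bnip3 2 ACGTG and 3 GCGTG cores, where the ACGTG pair are the strands of 1 CACGTG (an E-box, which other factors bind too). No core letters lay in the Pgam2 window. Windows existed for 36 of the 40 listed genes. Of those genes 24 held ACGTG in at least 1 window and 32 held either core, all 16 HIF genes with a window among them, and the genes with neither were Eno2, Gpi1, Pgam2 and Tpi1. Per window, ACGTG was present in 54.0% of 50 member windows against 19.6% of all 32851 windows of the table, and either core in 80.0% against 43.8%. Member windows were also richer in G and C, at a mean of 61.5% against 53.8%, and the part of base composition in this difference was not tested. A match is a description of letters and not a binding site.

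Over 8 days of differentiation without an agent the RNA of this list moved upward: 22 of the 36 members rose and 1 fell (63.9%), where 48.7% of all genes tested passed (28.3% higher and 20.5% lower). The groups did not overlap for 26 members, and for 56.8% of all genes. The median change was 0.67 over the members and 0.12 over all genes. Among HIF genes 10 of 18 rose, 8 of them by at least 2-fold, and 0 fell by limma (Pdk1, 1 gene, was lower at an unadjusted p under 0.05). Of the glycolytic genes 12 of 18 rose, 3 of them by at least 2-fold, and 1 fell. Of all 13067 genes tested, 1983 passed as higher by at least 2-fold. Centring each array on its median moved the median change of all genes to -0.15 and gave 16 members higher and 6 lower, and quantile normalization gave 21 and 0; of all calls 58.0% were higher as deposited, 51.5% after quantile normalization and 38.9% after median centring.

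**Figure D1:**
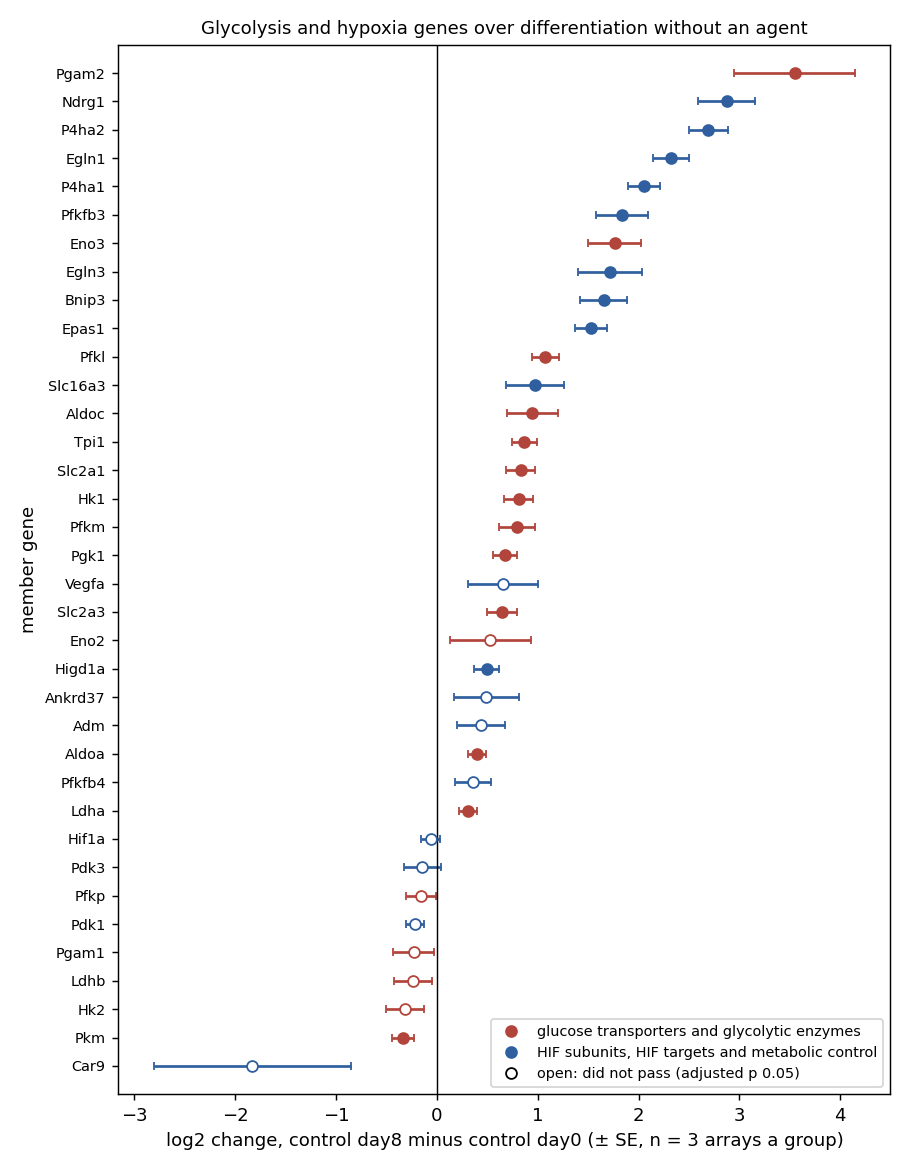
Log2 change of each of the 36 measured members from control day0 to control day8 (x axis, with standard errors, 3 arrays a group); red marks glycolytic genes, blue HIF genes, and filled points passed. Ndrg1, P4ha2 and Pgam2 lie farthest right, Hif1a lies at -0.06, and Car9 at -1.83 has a wide error.

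Apart from Pgam2, the largest rises were those of known HIF targets outside glycolysis. Ndrg1, a gene known to be induced by low oxygen and by differentiation, was at 6.60, 6.65 and 7.54 on the control day0 arrays, 9.66, 9.64 and 10.11 on control day8, 10.14, 10.14 and 10.80 with BPA and 9.88, 10.17 and 9.71 with NP. Every day 8 array lay above every day 0 array, and the change was 2.87 ± 0.28 (adjusted p = 4.4e-05). Its 4 other probe sets gave changes of 2.87 to 4.66. P4ha2 was at 5.92, 6.10 and 6.21 on the control day0 arrays, 8.87, 8.65 and 8.79 on control day8, 8.36, 7.92 and 8.69 with BPA and 8.24, 8.47 and 8.69 with NP. It encodes an alpha subunit of the enzyme that hydroxylates collagen prolines, and it rose by 2.69 ± 0.19 (adjusted p = 1.01e-05). P4ha1, its sister subunit, was at 6.91, 6.83 and 7.32 on the control day0 arrays, 9.11, 8.89 and 9.23 on control day8, 8.58, 8.35 and 8.60 with BPA and 8.73, 8.62 and 8.95 with NP. It rose by 2.06 ± 0.16, and both subunits were clear of their day 0 values on all 9 day 8 arrays.

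Both HIF prolyl hydroxylases of the list, Egln1 and Egln3, rose. Egln1, the main HIF prolyl hydroxylase, was at 7.04, 6.86 and 7.62 on the control day0 arrays, 9.47, 9.46 and 9.55 on control day8, 8.75, 8.81 and 8.78 with BPA and 9.19, 8.99 and 8.85 with NP. The change to control day8 was 2.32 ± 0.18 (adjusted p = 1.32e-05), and the other probe set of the gene gave 2.50. Egln3 was at 5.84, 6.32 and 7.13 on the control day0 arrays, 7.75, 8.13 and 8.55 on control day8, 8.69, 8.38 and 8.88 with BPA and 8.71, 9.03 and 9.10 with NP. This was a rise of 1.71 ± 0.32, with the 3 day 0 arrays spread over more than 1 log2 unit. Bnip3, a receptor for the removal of mitochondria, was at 9.54, 9.60 and 10.52 on the control day0 arrays, 11.45, 11.44 and 11.75 on control day8, 11.73, 11.72 and 11.92 with BPA and 11.73, 11.83 and 11.90 with NP. It rose by 1.66 ± 0.23.

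The HIF subunits themselves differed. Epas1 was at 7.71, 7.78 and 7.99 on the control day0 arrays, 9.44, 9.28 and 9.34 on control day8, 9.70, 9.45 and 9.83 with BPA and 9.64, 9.92 and 10.21 with NP. Its rise of 1.53 ± 0.16 (adjusted p = 5.52e-05) set all day 8 arrays above all day 0 arrays, although the other kept probe set of the gene, of low signal, gave 0.21 and the mean of both 0.87. Hif1a was at 10.41, 10.62 and 10.47 on the control day0 arrays, 10.46, 10.49 and 10.37 on control day8, 10.29, 10.40 and 10.26 with BPA and 10.34, 10.26 and 10.13 with NP. The control groups overlapped, and the change of -0.06 ± 0.10 did not pass (adjusted p = 0.633). Another probe set of Hif1a gave -0.34, and a weak one with a mean signal of 3.76 gave 2.01.

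Of the metabolic control genes, Pfkfb3, which makes the activator of phosphofructokinase, rose. It was at 5.72, 5.01 and 5.54 on the control day0 arrays, 7.01, 7.16 and 7.61 on control day8, 6.65, 6.22 and 7.06 with BPA and 6.88, 6.60 and 6.70 with NP. The rise was 1.84 ± 0.25. Pdk1, a kinase that inhibits pyruvate dehydrogenase in mitochondria, was at 10.26, 10.37 and 10.30 on the control day0 arrays, 10.11, 10.14 and 10.03 on control day8, 10.80, 10.80 and 10.98 with BPA and 10.48, 10.66 and 10.62 with NP. Its control groups did not overlap, but the change of -0.22 ± 0.09 did not pass (adjusted p = 0.0801). Pdk3 (-0.14 ± 0.18) and Pfkfb4 (0.36 ± 0.18) did not pass. Vegfa, the vascular growth factor, was at 6.51, 6.31 and 7.70 on the control day0 arrays, 7.64, 7.35 and 7.50 on control day8, 6.88, 7.33 and 7.84 with BPA and 7.61, 7.65 and 7.73 with NP. Control day0 replicate 3 reached the level of day 8, and the change of 0.66 ± 0.34 did not pass (adjusted p = 0.145), while it passed without that array.

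Smaller rises were those of Slc16a3, a lactate exporter (0.98 ± 0.29), and Higd1a, a mitochondrial protein (0.49 ± 0.12, or 0.92 with the mean of its probe sets). The call of Slc16a3 ended without replicate 1 or 3 of control day0 or control day8 replicate 1 (adjusted p as high as 0.0632). A further 3 HIF targets did not pass: Ankrd37 (0.49 ± 0.32), Adm, a vasoactive peptide (0.44 ± 0.24), and Car9, a carbonic anhydrase (-1.83 ± 0.98). The other probe set of Adm gave 1.01, and Adm passed with the mean of its probe sets. Car9 lay near background, with control day8 arrays at 2.57, 4.20 and -0.64, and passed as lower only in the fit without control day8 replicate 2 among those run.

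Glucose transporters and most measured steps of glycolysis had a member that rose. Slc2a1, the widespread glucose transporter, was at 11.61, 11.83 and 12.23 on the control day0 arrays, 12.71, 12.75 and 12.70 on control day8, 12.96, 12.93 and 13.12 with BPA and 13.03, 13.05 and 13.13 with NP. The rise was 0.83 ± 0.14 (adjusted p = 0.0011), and its other probe sets gave 0.98 and 1.31. Slc2a3, the transporter of higher affinity, rose by 0.64 ± 0.15. Pfkl, the liver-type phosphofructokinase, was at 7.27, 7.21 and 7.67 on the control day0 arrays, 8.39, 8.43 and 8.55 on control day8, 8.72, 8.41 and 8.59 with BPA and 8.52, 8.45 and 8.49 with NP. It rose by 1.07 ± 0.13, and all day 8 arrays of the 3 groups shared its higher level. Among the other enzymes, the rises were Tpi1 (0.87 ± 0.13), Hk1 (0.81 ± 0.15), Pfkm (0.80 ± 0.18), Pgk1 (0.68 ± 0.12), Aldoa (0.40 ± 0.09) and Aldoc (0.95 ± 0.26). The 4 other probe sets of Aldoa gave 0.06 to 0.53, and the other one of Hk1, weak at a mean of 3.15, gave -0.30. With the mean of its probe sets the call of Hk1 ended (0.26, adjusted p = 0.691), and the rise of Pfkl was 0.62 and that of Slc2a3 0.97.

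Gapdh, the enzyme whose product is passed to Pgk1, was outside the test. Its 3' control probe set was at 12.90, 12.93 and 12.99 on control day0 arrays, 12.93, 12.88 and 12.91 on control day8, 13.17, 13.19 and 13.02 with BPA and 13.03, 13.10 and 13.13 with NP. The control groups overlapped, and every agent array lay above every control array.

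Ldha, which makes lactate, was at 12.53, 12.52 and 12.66 on the control day0 arrays, 12.89, 12.85 and 12.89 on control day8, 12.79, 12.80 and 12.66 with BPA and 12.88, 12.86 and 13.08 with NP. Its rise of 0.31 ± 0.09 (adjusted p = 0.0196) ended without replicate 1 or 2 of control day0 or control day8 replicate 1 (adjusted p as high as 0.0639). The call of Ldha also ended after median centring (0.039, adjusted p = 0.780) and with only the groups compared. Pkm, pyruvate kinase, was the member that fell, from 10.27 ± 0.12 (SD, n = 3) to 9.94 ± 0.12, by 0.34 on the log2 scale, and its call ended without replicate 1 or 3 of control day0 or replicate 1 or 3 of control day8 (adjusted p as high as 0.0924). Hk2 (-0.32 ± 0.19), Pfkp (-0.16 ± 0.15), Pgam1 (-0.23 ± 0.20), Eno2, the neuronal enolase (0.53 ± 0.40), and Ldhb (-0.24 ± 0.19) did not pass. Within isoform families the members thus did not all pass together. Hk1 rose, though not with the mean of its probe sets, and Hk2 did not pass. Pfkl and Pfkm rose and Pfkp did not pass, while the weaker kept probe sets of Pfkp gave 1.25 and -0.69. After median centring Hk2, Pfkp, Ldhb, Pdk1 and Hif1a passed as lower. The rises of Aldoa (0.13, adjusted p = 0.303), Higd1a (0.22, adjusted p = 0.193) and Slc2a3 (0.37, adjusted p = 0.0641) then did not pass. Nor did those of Aldoc, Slc16a3 and Ldha. The call of Slc16a3 also ended with quantile normalization, and that of Aldoc with only the groups compared.

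Pgam2 and Eno3, muscle isoforms of glycolysis, rose over differentiation and were lower with each agent. Pgam2, the muscle phosphoglycerate mutase, was at 2.72, 2.02 and 4.54 on the control day0 arrays, 7.12, 6.54 and 6.26 on control day8, 2.64, 1.996 and 2.39 with BPA and 4.89, 3.56 and 4.86 with NP. Background on these arrays, taken from bacterial control probe sets, reached 3.41, so that control day8 stood above it, BPA day8 below it on all arrays, and NP day8 above it on all arrays but below control day8. Pgam2 rose by at least 2.86 over differentiation, was at least 9.41-fold lower with BPA than in control day8 (adjusted p = 0.00142) and fell by 2.21 ± 0.60 with NP (adjusted p = 0.0392). Without control day0 replicate 1, or without any 1 of the 9 day 8 arrays, the NP call ended (adjusted p as high as 0.13). Eno3, the muscle enolase, was at 6.59, 6.68 and 6.31 on the control day0 arrays, 8.32, 8.47 and 8.07 on control day8, 7.002, 6.96 and 6.78 with BPA and 7.96, 6.95 and 6.84 with NP. It rose by 1.76 ± 0.27 over differentiation and changed by -1.38 ± 0.27 with BPA (adjusted p = 0.00622) and by -1.04 ± 0.27 with NP, where NP day8 replicate 1 lay at least 1 log2 unit above the other NP arrays. The NP call of Eno3 ended without replicate 1 or 2 of control day8 or replicate 2 or 3 of NP day8 (adjusted p as high as 0.11).

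Markers from a list for cardiac and skeletal muscle moved with both genes. The list held Tnnt2, Myh6, Myl7, Tnni1, Actc1, Ryr2, Nkx2-5 and Myl4, and it does not tell the muscle types apart. The mean of 8 such markers was 2.97 to 3.39 on control day0 arrays, 7.71 to 8.53 on control day8, 5.10 to 5.82 with BPA and 4.32 to 6.98 with NP, and their summed signal ranged from 125 to 155, 3549 to 5562, 398 to 640 and 314 to 1898 in turn. Tnnt2 and Tnni1, troponins of the sarcomere, were under background on all control day0 arrays. With each agent 6 of the 8 markers were lower than in control day8. The part of muscle cells in the values of Pgam2 and Eno3 was not tested. Pfkm, also named for muscle, was at -0.12 ± 0.18 with BPA and -0.16 ± 0.18 with NP, neither of which passed.

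**Figure D2:**
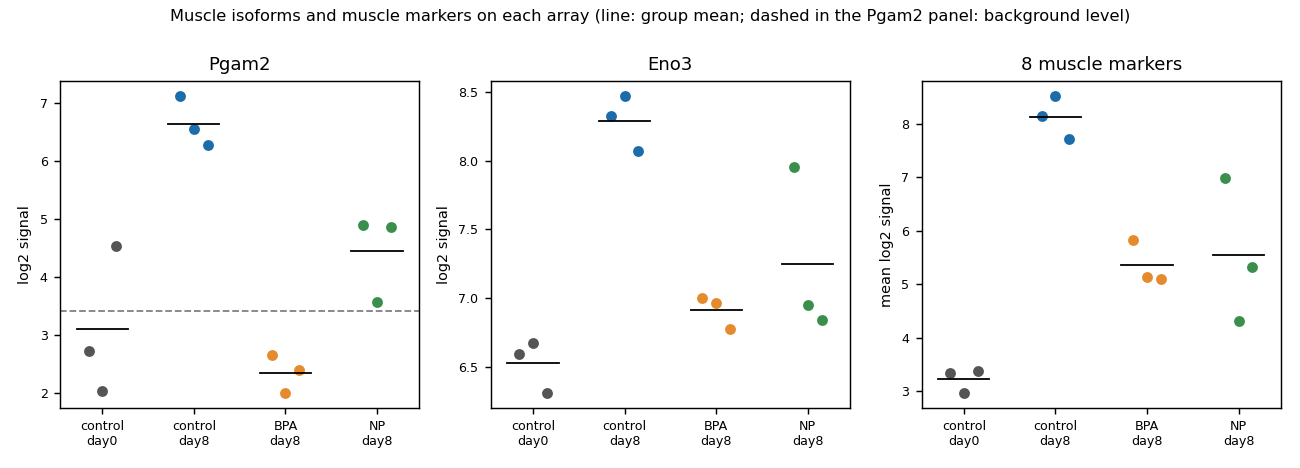
Log2 signal of Pgam2 and Eno3 and the mean log2 signal of 8 muscle markers on each of the 12 arrays (points, 3 a group; line, group mean; dashed line in the Pgam2 panel, background level of 3.41). All 3 panels are highest in control day8, and the NP array highest in Eno3 is also the highest NP array for the markers.

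At day 8, cultures with BPA were compared with control day8. Ldhb, Ankrd37, Pfkp and Pdk1 rose most among the members called, and Pgam2 and Eno3 fell most. Of the 36 members 6 were higher and 4 lower than in control day8 (27.8%), where 22.2% of all genes passed (12% higher and 10.2% lower), so the share called was near that of all genes. The groups did not overlap for 16 members, and for 41.6% of all genes. The median change was 0.08 over the members and 0.04 over all genes. Without control day8 replicate 1 the calls came down to 5 members, 3 higher and 2 lower, and to 1822 genes in place of 2906. Without replicate 1 of BPA day8 5 members were called, and without replicate 2 of BPA day8 6.

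Ldhb, the lactate dehydrogenase subunit of oxidative tissues, was at 9.31, 9.22 and 9.71 on the control day0 arrays, 8.88, 9.19 and 9.45 on control day8, 10.39, 10.60 and 10.43 with BPA and 10.29, 10.51 and 10.04 with NP. With BPA it was higher by 1.30 ± 0.19 (adjusted p = 0.00166), every BPA array lay above every control array of both days, and its 3 other probe sets gave 1.17 to 1.497. Its partner Ldha was at -0.13 ± 0.09 and did not pass. Pdk1 was higher by 0.76 ± 0.09 with BPA (adjusted p = 0.000754), and the BPA arrays, at 10.80 or above, also exceeded day 0. Of its other kept probe sets, 1 gave 0.63 and 1 gave -0.04, and the mean of its probe sets gave 0.45 and passed. Pfkp, the platelet-type phosphofructokinase, went from 8.89 ± 0.25 (SD, n = 3) to 9.88 ± 0.16, a rise of 0.99 ± 0.15, while its weaker probe sets gave -0.94 and 0.36 and the mean over its probe sets did not pass (0.14, adjusted p = 0.518).

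Ankrd37, an ankyrin repeat gene induced by HIF, was at 5.58, 6.27 and 6.43 on the control day0 arrays, 6.24, 6.19 and 7.33 on control day8, 7.75, 7.63 and 7.86 with BPA and 7.18, 7.59 and 7.68 with NP. It rose by 1.16 ± 0.32 with BPA (adjusted p = 0.0289), a call that ended without replicate 1 or 2 of control day8 or any BPA array (adjusted p as high as 0.103). Hk1 (0.54 ± 0.15) and Pkm (0.41 ± 0.11) also rose. The call of Hk1 ended with the mean of its probe sets (0.88, adjusted p = 0.227) and without replicate 1 or 2 of control day8 or any BPA array (adjusted p as high as 0.0889), and that of Pkm without replicate 1 or 3 of control day8 or replicate 1 or 2 of BPA day8 (adjusted p as high as 0.0839). Besides the muscle isoforms, Egln1 fell by 0.71 ± 0.18 and P4ha1 by 0.57 ± 0.16 with BPA. Both stayed above day 0 by 1.61 ± 0.18 and 1.49 ± 0.16. The call of Egln1 ended without control day8 replicate 1 or replicate 1 or 3 of BPA day8 (adjusted p as high as 0.0552), and that of P4ha1 without replicate 1 or 3 of control day8 or any BPA array (adjusted p as high as 0.0973).

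Markers of other cell types moved between these groups as well. The summed signal of 8 fibroblast and mesenchyme markers was 6058 to 9016 in control day8, 830 to 969 with BPA and 803 to 1053 with NP, and that of the pluripotency markers was higher with each agent than in control day8, as given above. Their part in the changes of the members was not tested. P4ha1 and P4ha2 modify collagens, and the collagen markers Col1a1, Col1a2 and Col3a1 changed by -2.46, -2.10 and -4.64 with BPA. P4ha2 did not pass with BPA (-0.45 ± 0.19). With NP the collagens changed by -3.18, -2.29 and -4.96, and neither P4ha1 (-0.31 ± 0.16) nor P4ha2 (-0.30 ± 0.19) passed. Over differentiation, where both P4ha genes rose, Col1a1 did not pass (0.50), Col1a2 fell (-0.73) and Col3a1 rose (1.04). A link between these genes was not tested.

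**Figure D3:**
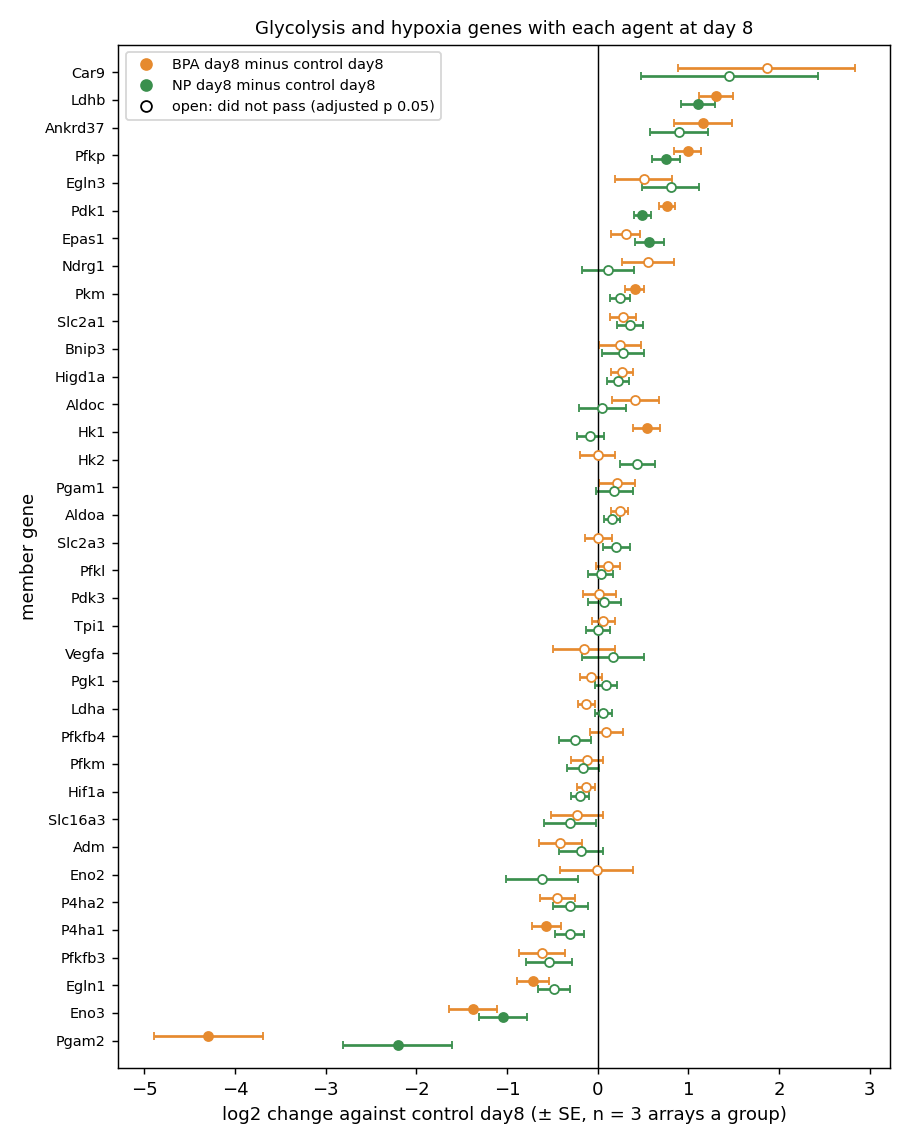
Log2 change of each of the 36 measured members against control day8 (x axis, with standard errors, 3 arrays a group) with BPA (orange) and NP (green); filled points passed. Most points lie near 0, Pgam2 and Eno3 lie to the left with both agents, and Ldhb, Ankrd37, Pfkp and Pdk1 lie to the right with both. Car9, near background, lies farthest right, at 1.87 with BPA and 1.45 with NP, and passed with neither.

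With NP, 4 of the 36 members were higher and 2 lower than in control day8 (16.7%), where 14.2% of all genes passed (7.9% higher and 6.28% lower), again a share near that of all genes. The groups did not overlap for 16 members, and for 34.8% of all genes. The median change was 0.08 over the members and 0.01 over all genes. Ldhb rose by 1.11 ± 0.19 (adjusted p = 0.00589), Pfkp by 0.75 ± 0.15, Pdk1 by 0.49 ± 0.09 and Epas1 by 0.57 ± 0.16 (adjusted p = 0.0412). Epas1 kept its call in 4 of 12 fits that each left out 1 array (adjusted p as high as 0.128): it ended without replicate 1 or 2 of control day0, any control day8 array, BPA day8 replicate 1, or replicate 2 or 3 of NP day8. With the mean of probe sets the NP calls of Pfkp (0.26, adjusted p = 0.249), Pdk1 (0.27, adjusted p = 0.0928) and Epas1 (0.27, adjusted p = 0.482) ended. For Pfkp the call also ended when control day8 replicate 1 was left out (adjusted p = 0.0504). The fit without that control array called 2 members and 802 genes in place of 6 and 1852. Without control day8 replicate 2, NP day8 replicate 2 or NP day8 replicate 3, 3 members were called each time, with 1022, 854 and 896 genes. The fit with only the control day8 and NP arrays called 1 member and 645 genes. The comparison shares its control arrays with that of BPA, so the members called in both are not independent evidence of each other.

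The agents were compared with each other in the fit of all 12 arrays. By limma 0 of 36 members passed in NP day8 against BPA day8, 4 had an unadjusted p under 0.05 (Hk1, Hk2, Pgam2 and Pdk1), and 1 gene of all tested passed (0.00765%). The lowest adjusted p of a member was that of Hk1 (0.352), at a difference of -0.62 ± 0.15 with a 95% confidence interval from -0.95 to -0.29. Pgam2, under background on all BPA arrays, was at least 2.04-fold higher with NP, which did not pass (adjusted p = 0.407), and all NP arrays lay above all BPA arrays. The groups did not overlap for 11 of the 36 members, and for 17% of all genes. For 30 members the interval of the difference lay within a 2-fold change in either direction. For Pgam2, Eno2, Vegfa, Egln3, Car9 and Ndrg1 it did not, so a difference of that size was not bounded for them.

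Against control day0 each agent group was set out as well. With BPA 22 of 36 members were higher and 0 lower by limma, where 33.6% of all genes passed (21.7% higher), and with NP 23 were higher and 0 lower (0 and 1, Hif1a, were lower at an unadjusted p under 0.05), where 32.1% passed (20.2% higher). All 3 day 8 groups were higher than control day0 for 18 members, 9 of them by at least 2-fold in each group: Pfkl, Pfkfb3, Bnip3, Egln1, Egln3, Epas1, P4ha1, P4ha2 and Ndrg1. How many of all genes tested were higher in all 3 groups, or by 2-fold in each, was not counted. The counts of 18 and 9 therefore have no share of all genes beside them. These comparisons share the control day0 arrays. Pfkp, Ldhb, Pdk1 and Ankrd37 passed as higher with both agents and not in control day8, and Pgam2, Eno3 and Slc16a3 in control day8 and with neither agent; passing in some groups only does not show that the groups differ. Eno3 was at 0.39 ± 0.27 and 0.72 ± 0.27 with BPA and NP against day 0, and Slc16a3 at 0.75 ± 0.29 and 0.67 ± 0.29.

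**Figure D4:**
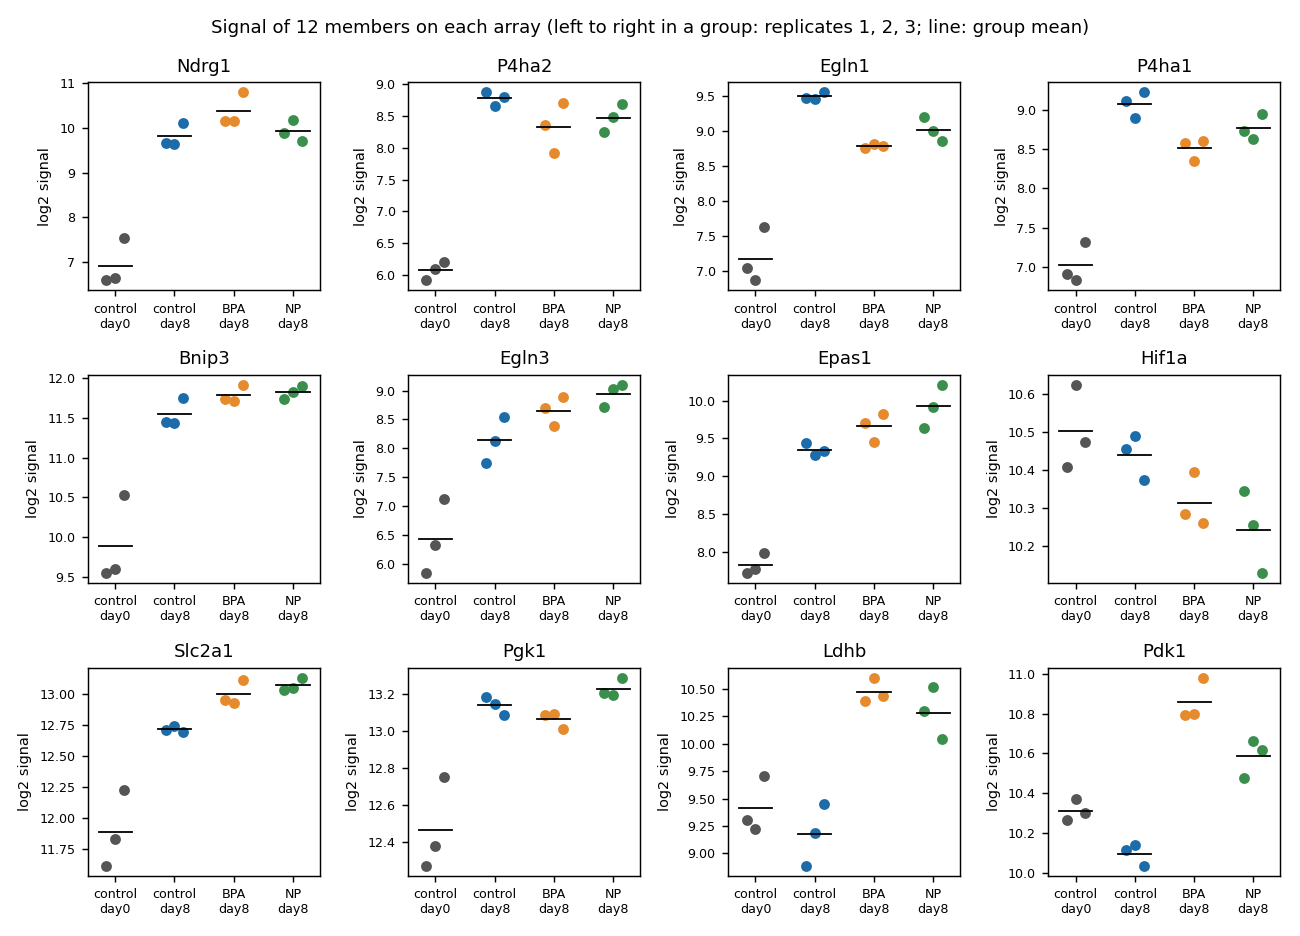
Log2 signal of 12 members on each of the 12 arrays (points in replicate order within a group; line, group mean; each panel has its own y axis). Ndrg1, P4ha2, Egln1, P4ha1, Bnip3, Egln3 and Epas1 are higher on all 9 day 8 arrays than on the day 0 arrays, and Ldhb and Pdk1 are highest with the agents.

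The sublists were set side by side, with no test of the difference between them. The mean of the 18 HIF genes was 7.07 ± 0.24 (SD, n = 3) on control day0 arrays, 8.06 ± 0.03 on control day8, 8.21 ± 0.17 with BPA and 8.20 ± 0.08 with NP. The mean of the 18 glycolytic genes was 9.15 ± 0.18, 9.82 ± 0.02, 9.74 ± 0.04 and 9.79 ± 0.06 in turn. On every day 8 array both means lay above those of the day 0 arrays. The change over differentiation was thus 0.99 for HIF genes and 0.66 for glycolytic genes, and 0.72 and 0.39 after median centring. Against control day8 the HIF mean changed by 0.14 with each agent and the glycolytic mean by -0.08 with BPA and -0.02 with NP, values that rest on single members and arrays. Without Pgam2 the glycolytic changes were 0.17 and 0.11, and with the stricter filter 0.18 and 0.15. Without Car9, which lay near background, the HIF changes were 0.04 and 0.06, and without BPA day8 replicate 3 that of BPA was 0.045. Levels cannot be set against each other between the sublists.

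**Figure D5:**
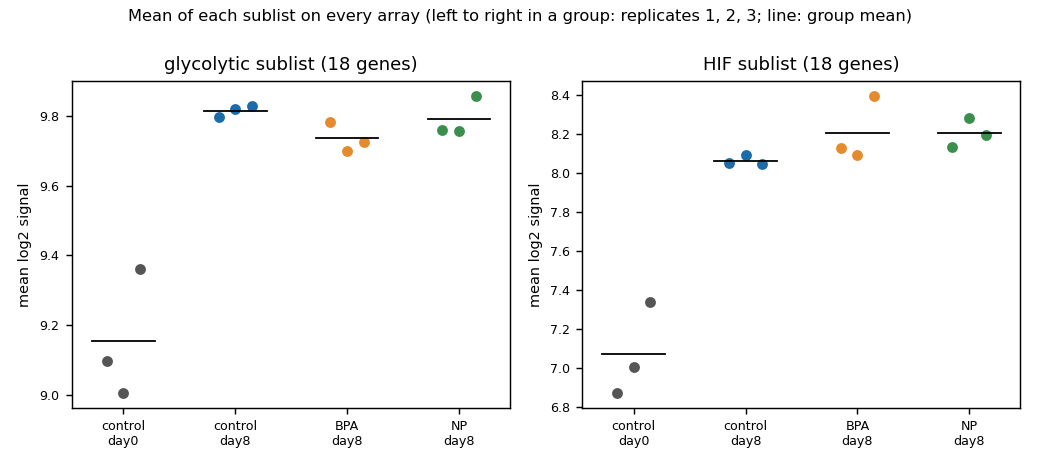
Mean log2 signal of the 18 glycolytic and the 18 HIF genes on each of the 12 arrays (points in replicate order; line, group mean; y axes differ). Both means are lowest on control day0 arrays, where replicate 3 is the highest of its group, at 9.36 and 7.34.

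Control day0 replicate 3 was high for many members, though over all genes the arrays of its group correlated at 0.938 to 0.939. It was the highest of the 3 day 0 arrays for 23 of 36 members (63.9%), 12 of 18 HIF and 11 of 18 glycolytic genes, and for 40.5% of all genes tested. BPA day8 replicate 3 was likewise the highest of its group for 12 of 18 HIF genes, and for 35.8% of all genes. The gap of control day0 replicate 3 to the mean of the other 2 arrays was 2.17 for Pgam2, 1.28 for Vegfa, 1.05 for Egln3, 0.95 for Bnip3, 0.93 for Aldoc and 0.91 for Ndrg1. Without it the HIF mean changed by 1.12 and the glycolytic mean by 0.77 over differentiation, and 22 members rose, with Vegfa among them and Slc16a3 not. The median SD of the members was 0.26 on day 0 arrays against 0.15 in control day8, 0.13 with BPA and 0.16 with NP, while over all genes it was 0.21, 0.22, 0.20 and 0.21.

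Further genes of both pathways came from lists that do not overlap the members. Of 35 measured genes related to glycolysis, 12 rose and 7 fell over differentiation (54.3%, median 0.00), where 48.7% of all genes passed. Slc2a2, the glucose transporter of liver and yolk sac, was at least 9.19-fold higher, Pygl, liver glycogen phosphorylase, rose by 3.25 ± 0.31, and Hkdc1, a hexokinase-like protein, by at least 2.38. Tigar (-1.71 ± 0.26), a fructose bisphosphatase, Mpc1 (-1.12 ± 0.15), a subunit of the mitochondrial pyruvate carrier, and Taldo1 (-1.02 ± 0.16) of the pentose phosphate pathway fell. With BPA 7 of the 35 rose and with NP 5, and 0 fell with either by limma (3 and 2 were lower at an unadjusted p under 0.05). These are 20% and 14.3% of the list, where 22.2% and 14.2% of all genes passed. Pdk4, a sister of Pdk1, rose by 1.68 ± 0.22 with BPA and 1.36 ± 0.22 with NP, and Tigar by 1.47 ± 0.26 and 1.02 ± 0.26. Mpc1 rose with NP by 0.81 ± 0.15. Ldhc, the testis lactate dehydrogenase, was under background in control day8 and at least 2.21-fold higher with BPA, a call that ended without replicate 1 or 2 of control day8 or replicate 1 or 3 of BPA day8 (adjusted p as high as 0.0787). The NP call of Tigar ended without replicate 1 or 2 of control day8 or replicate 2 or 3 of NP day8 (adjusted p as high as 0.107).

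Among 41 measured genes related to hypoxia, 21 rose and 6 fell over differentiation (65.9%, median 0.56), where 48.7% of all genes passed with a median of 0.12. Plod2, a collagen lysyl hydroxylase, rose by 2.40 ± 0.23, Ppp1r3c, a glycogen regulator, was at least 6.96-fold higher, and Pgf, placental growth factor, rose by at least 2.55. Lox, which cross-links collagen (-4.20 ± 0.43), Angptl4, a lipase inhibitor (-2.76 ± 0.32), and Bhlhe40, a transcriptional repressor (-1.40 ± 0.18), fell, and Lox is a gene that feeder fibroblasts also express. With BPA 6 of the 41 rose and 8 fell (34.1%, against 22.2% of all genes), and with NP 6 rose and 3 fell (22% against 14.2%). Rbpj, the DNA-binding partner of Notch, rose by 1.11 ± 0.10 and 0.90 ± 0.10, and Bhlhe40 by 1.09 ± 0.18 and 0.90 ± 0.18. Angptl4 rose by 1.55 ± 0.32 and 1.16 ± 0.32, and its NP call ended in 13 of 21 other settings, 10 of them fits without 1 array (adjusted p as high as 0.139). With BPA Tgfb3, a growth factor, was at least 1.29-fold lower and under background on all BPA arrays. Pgf (-2.60 ± 0.73) and Ppp1r3c (-2.32 ± 0.62) fell with BPA too; the call of Pgf ended without any of the control day8 arrays and without replicate 1 or 3 of BPA day8 (adjusted p as high as 0.0975), and that of Ppp1r3c without replicate 2 or 3 of control day8 or replicate 1 or 2 of BPA day8 (adjusted p as high as 0.0695). Cxcl12, a chemokine (-1.59 ± 0.28), and Flt1, a receptor for Vegfa (-0.97 ± 0.17), fell with NP, as did Egln2, a HIF prolyl hydroxylase (-0.41 ± 0.11), whose call ended in 12 of 21 other settings (adjusted p as high as 0.119). The gene that passed between the agents was Tgfb3, at a mean of 3.70 with NP and 0.56 with BPA (adjusted p = 0.0425), the last under background on all arrays, so that it was at least 1.23-fold higher with NP, and its call ended in 13 of 20 other settings, 9 of them fits without 1 array.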

How the data were processed

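The 12 arrays hold 45101 probe sets, deposited by the authors as log2 values; per the submitters' processing notes they were made with MAS5. The deposited log2 signal, turned back to the linear scale, has a 2% trimmed mean of 100.0 on every array, so the arrays were already scaled to each other. Depth does not apply to arrays, and 3 arrays a group limit the precision. The 64 control probe sets were left out, the 60% of the others with the highest mean were kept (27023), the probe sets listed for several genes (932 on the array) were then dropped, and each gene was taken from its probe set of highest mean. Gene names come from the platform annotation, which can be old.

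All 12 arrays were fitted as 4 group means with limma 3.58.1 (lmFit and eBayes, R 4.3.3; 8 residual and 1.57 prior degrees of freedom), and p-values were adjusted over 13067 genes by the Benjamini-Hochberg method at 0.05. The fit was tested on simulated data. The background level, 3.41 on the log2 scale, is the highest of 36 values of 3 bacterial TrpnX control probe sets, and was chosen after seeing the data. A fold for a group mean under it is a lower bound against that level. Values on all arrays are given for members that passed with a log2 change of at least 1 and no overlap, and for Hif1a, Epas1, Slc2a1, Ldha, Pdk1, Vegfa and Gapdh. Of the further pathway genes, up to 3 a direction and comparison with the largest change among those called are named. The members and lists were chosen with earlier results of these data known. With 3 arrays against 3, an exact permutation test cannot go below p = 0.1, so it was not used. Alternatives changed the pseudocount, filter, normalization, probe set choice, prior, arrays in the fit and a replicate block, and left out each array in turn.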

Additional observations from a re-analysis of the deposited data

Results flagged for a closer look

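Some probe sets kept out of the comparisons also carried signal that separated the groups, with no overlap between arrays. Among all genes tested, the groups did not overlap for 56.8% over differentiation, 41.6% with BPA and 34.8% with NP. The 3 probe sets that Bnip3l, a mitophagy receptor related to Bnip3, shares with a pseudogene were higher in control day8 than in control day0 by 1.20, 1.14 and 0.99 on the log2 scale. The same 3 were lower than in control day8, at -0.16, -0.54 and -0.34 with BPA and -0.20, -0.35 and -0.24 with NP. Of the Gapdh probe sets, 1 that is shared with a pseudogene was higher than in control day8 by 0.68 with BPA and 0.65 with NP. The Gapdh control probe sets were higher by 0.22 (3' end), 0.12 (5' end) and 0.26 (middle) with BPA, and by 0.18 (3' end) and 0.11 (5' end) with NP. The middle control probe set overlapped with NP (0.16). The remaining shared Gapdh probe sets overlapped with control day8 for both agents. They gave 0.10 and -0.56 with BPA, and 0.08 and 0.05 with NP. These differences were not tested.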

How the results depend on the processing

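Of 39 calls of members over the comparisons, 20 held in every other processing of the whole table that could be run and in all 12 fits that left out 1 array (15 of 23 over differentiation, 4 of 10 with BPA and 1 of 6 with NP), and 0 reversed. The glycolytic mean over differentiation was 0.55 with a pseudocount of 16, 0.49 with the stricter filter and 0.39 after median centring, and the HIF mean 1.16 with the stricter filter and 0.72 after median centring. With BPA the glycolytic mean was 0.023 with the pseudocount and 0.18 with the stricter filter, and with NP 0.15 with the stricter filter, which leaves out Pgam2. Leaving out Pgam2, which was chosen after seeing the data, gave glycolytic means of 0.49 over differentiation, 0.17 with BPA, 0.11 with NP and -0.064 between the agents, and leaving out Car9 an HIF mean of 1.16 over differentiation. Without a filter, 6 members were called with BPA, and 3 members and 1182 genes with NP. With only the groups compared, 1 member and 645 genes were called with NP. Between the agents, genes called were 0 with the pseudocount, the stricter filter, the trend prior or only the groups compared, 4 with no filter and 3 with the mean of probe sets. After median centring 65.2% of calls were higher with BPA and 66.7% with NP, against 54.0% and 55.7% as deposited. The cause of these shifts was not tested.

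Leaving out 1 array at a time gave 5515 to 6285 genes and 20 to 24 members over differentiation, 1822 to 2949 genes and 5 to 10 members with BPA, 802 to 1874 genes and 2 to 8 members with NP, and 0 to 3 genes between the agents. The glycolytic mean then ranged from 0.59 to 0.77 over differentiation, -0.10 to -0.061 with BPA, -0.056 to -0.0055 with NP and 0.023 to 0.080 between the agents, and the HIF mean from 0.89 to 1.12, 0.045 to 0.20, 0.10 to 0.17 and -0.058 to 0.095. Deviations from the group mean were weakly correlated between samples of the same replicate number (18 pairs, correlations of -0.01 to 0.08, 0 over 0.1). Pairs of different replicate numbers were not set beside them, so this does not show whether the numbers pair the samples. A replicate block gave 6175 genes and 23 members over differentiation, 2646 and 10 with BPA, 1551 and 7 with NP, and 0 genes between the agents. Signals near background, such as those of Car9 and of Pgam2 with BPA, limit what can be measured, and folds against a mean under it are lower bounds.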
